A study of Equus caballus with 20 samples.

Results

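The miR-23, miR-27 and miR-24 miRNAs of the mare were followed in extracellular vesicles of follicular fluid, membrane-bound particles that cells of the follicle and its surroundings release. The 5 members were taken by name from a deposited table of 686 miRNA names and are eca-miR-23a, eca-miR-23b, eca-miR-24, eca-miR-27a and eca-miR-27b. The table held 5 names of these families in all, so no other arm is left out. A miRNA was tested where 4 or more libraries held 10 or more scaled reads, which 264 did, all 5 members among them.

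Mammals carry these miRNAs in a pair of paralogous clusters. One transcript gives miR-23a, miR-27a and a copy of miR-24, and the other gives miR-23b, miR-27b and a further copy of miR-24. Both copies yield the same mature miR-24, so its single line in the table cannot be assigned to a cluster. The a and b forms of miR-23, and likewise of miR-27, share a seed, the stretch that pairs with target mRNAs, and are nearly alike over the rest of the mature sequence. Reads of paralogs this close can be split by the counting, whose settings are not given in the sources used here, so the assignment between a and b is uncertain. In other mammals the clusters are known for roles in blood vessel growth, adipocyte differentiation and immune cells, and miR-23a and miR-27a have been studied in granulosa cells, the steroid-producing cells that line the follicle. No sequence file was used here, so no sequence is printed.

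Mares of 1 breed, 19 in all and 8 to 14 years old, had their follicles of 6 mm or more ablated on days 10 to 11 of the cycle, after which a new wave of follicles grew and was followed by daily ultrasound. Fluid was drawn through the vaginal wall from healthy growing follicles in 5 groups of 4 libraries each. Predeviation follicles measured 18 to 20 mm, deviation follicles 22 to 25 mm, postdeviation follicles 26 to 29 mm and preovulatory follicles 30 to 35 mm, while the last group, impending ovulation, was defined by signs of imminent ovulation without a diameter. Deviation is the point at which the future dominant follicle outgrows the others. Which mare gave which library is not labelled. With 20 libraries and 19 mares at least 1 mare gave more than 1, and p-values measure only the spread between these libraries. Values are reads multiplied by a factor per library, called scaled reads here. Libraries held between 27131 and 110130 recovered reads. The shallowest were preovulatory 3 and impending ovulation 2, with 27131 and 29862 reads. In fluid, fewer vesicles of a kind and less RNA per vesicle cannot be told apart.

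The members spanned a wide range of levels. MiR-24 averaged 18161 ± 4073 scaled reads (SD, n = 20), miR-27b 15994 ± 3562 and miR-27a 10927 ± 3119. By mean they ranked 11, 14 and 19 among all names. MiR-23a averaged 1098 ± 510 (rank 58) and miR-23b 189 ± 217 (rank 114). Within each cluster the mates thus differed by far in level although they derive from common transcripts. The ratio of miR-27a to miR-23a in a library had a median of 10.8 and ran from 3.56 to 26.6. That of miR-27b to miR-23b had a median of 99.1 in the 19 libraries with a read of miR-23b and ran from 14.8 to 741. Mature miRNAs are of about the same length, and no correction for length was made.

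MiR-27a, of the a cluster, had its lowest stage mean before deviation. Predeviation libraries 1 to 4 held 5853, 5522, 11380.3 and 5958 scaled reads, and the deviation libraries 12911, 11528, 10909 and 16318. All but predeviation 3 of the first group lay below all of the second. Postdeviation libraries held 10923, 15509, 13011 and 14874, preovulatory libraries 7034, 9377, 9491 and 9339.6, and impending ovulation libraries 11796, 13423, 11261 and 12117. In scaled reads the preovulatory group thus lay below every library of deviation, postdeviation and impending ovulation. In each of these 3 stages 3 of the 4 libraries lay above all of predeviation in scaled reads. As percent of library reads, preovulatory 4 (1.21%) lay above deviation 2 (1.09%), deviation 3 (0.929%) and impending ovulation 3 (1.11%). Only the separation of preovulatory from postdeviation stayed. From high to low, the stage means ran postdeviation (13579 ± 2064, SD, n = 4), deviation (12916 ± 2417), impending ovulation (12149.5 ± 919.7), preovulatory (8811 ± 1186) and predeviation (7178 ± 2807). No neighbours in this order differed past the threshold.

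MiR-27a rose between predeviation and postdeviation, the stages on either side of selection of the dominant follicle. The log2 change was 0.98 ± 0.27 (SE; fold 1.97; limma adjusted p = 0.0224), and 3 of 4 postdeviation libraries lay above all of predeviation in scaled reads. Of all 264 miRNAs tested 6.06% were called in this comparison, and 1 of the 5 members was. Between deviation and predeviation the log2 change was 0.90 ± 0.27 (limma adjusted p = 0.144) and between impending ovulation and predeviation 0.83 ± 0.27 (0.0773), neither past the threshold. The call at postdeviation was lost without predeviation 1 or 2 or postdeviation 2 or 4 (limma adjusted p 0.0621 to 0.0916) and with edgeR (0.0659), while DESeq2 kept it (0.00078). DESeq2 called 14.7% of the 136 miRNAs to which it gave an adjusted p in this comparison, 2 members among them.

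**Figure D1:**
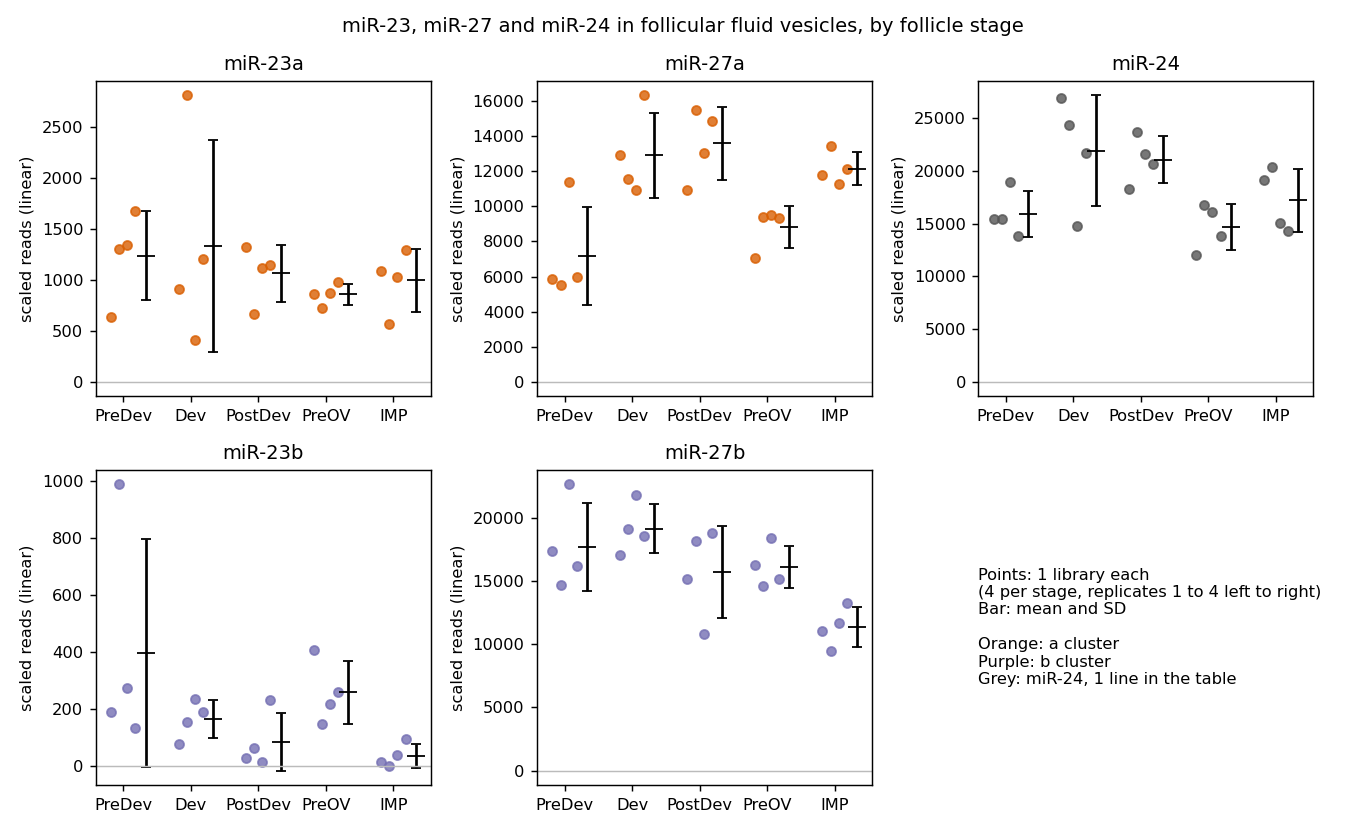
Scaled reads of each member (vertical axis, linear, from 0) in the 4 libraries of each follicle stage (PreDev predeviation, Dev deviation, PostDev postdeviation, PreOV preovulatory, IMP impending ovulation), with the mean and SD beside them. MiR-27a is low in 3 of the 4 predeviation libraries, and miR-27b and miR-23b are lowest at impending ovulation.

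MiR-27b, made from the other cluster, followed another course. Predeviation libraries held 17351, 14638, 22651 and 16162 scaled reads, deviation libraries 17079, 19091, 21755 and 18581, and postdeviation libraries 15125, 18143, 10772 and 18780.5. The 3 groups overlapped. Preovulatory libraries held 16242, 14566, 18362 and 15139, and impending ovulation libraries 11050.5, 9433, 11668 and 13285. In scaled reads all 4 libraries at impending ovulation lay below every library of predeviation, deviation and preovulatory. They overlapped only with postdeviation, through postdeviation 3. As percent of library reads, predeviation 4 (0.909%) lay below all 4 of them (1.11 to 1.42%). Only the separations from deviation and preovulatory stayed. It was not counted how many of all 264 miRNAs separate these stages. The stage means ran from 19126 ± 1949 at deviation through 17700.4 ± 3482 at predeviation, 16077 ± 1674 at preovulatory and 15705 ± 3655 at postdeviation to 11359 ± 1593 at impending ovulation.

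None of the pairs of stages was past the threshold for miR-27b. From predeviation to impending ovulation it differed by -0.63 ± 0.25 on the log2 scale (limma adjusted p = 0.175; 4 of 4 libraries below all of predeviation in scaled reads only). From deviation to impending ovulation the difference was -0.76 ± 0.25 (limma adjusted p = 0.135; 4 of 4). DESeq2 put the log2 change against predeviation at -0.56 (adjusted p = 0.0475) and edgeR at -0.56 (0.318). DESeq2 called 16.7% of the 156 miRNAs with an adjusted p there, 3 members among them. It was -0.91 with quantile normalization (limma adjusted p = 0.0510) and -0.18 with libraries brought to equal totals (0.793), so the size depended on how libraries were scaled.

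MiR-23b, the scarcest member, had its lowest stage mean at impending ovulation as well. Its scaled reads at predeviation were 192, 989, 275 and 133, from 13, 101, 10 and 7 recovered reads. Deviation libraries held 78.9, 155, 236 and 189.6, and postdeviation libraries 28.8, 63.5, 16.5 and 233. Predeviation 2 alone held more reads of miR-23b than the other 3 predeviation libraries together. Preovulatory libraries held 409, 147, 219 and 260.4, and impending ovulation libraries 14.9, 0, 38.1 and 95.6. The latter came from 1, 0, 3 and 9 reads, 13 over the stage, compared with 131, 48, 22 and 103 over the 4 earlier stages in order. In scaled reads all 4 libraries at impending ovulation lay below all of predeviation and all of preovulatory. As percent of library reads, impending ovulation 4 (0.0102%) lay above predeviation 4 (0.00749%), and the separation from preovulatory stayed. How many of all 264 miRNAs separate these groups was not counted. For the library with 0 reads, the exact 95% interval of the count, which covers counting error only, reached up to 3.69 reads.

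MiR-23b fell from predeviation to impending ovulation, with a log2 change of -4.21 ± 1.12 (limma adjusted p = 0.0260; lower in 4 of 4 in scaled reads). The mean fell from 397 ± 399 to 37.1 ± 42.0 (SD, n = 4), a ratio of 0.0935. In this comparison 5.68% of all 264 miRNAs were called, and 1 of the 5 members was. The fitted size is uncertain at so few reads: it was -2.89 without impending ovulation 2 (limma adjusted p = 0.0950), -3.62 without predeviation 2 (0.111), -4.22 without impending ovulation 1 (0.0543), -4.23 without predeviation 3 (0.0512), -3.19 with edgeR (0.0314) and -3.25 with DESeq2 (0.00245). EdgeR called 6.06% of the 264 miRNAs in this comparison. From preovulatory to impending ovulation the log2 difference was -3.96 ± 1.12 (limma adjusted p = 0.134), and from predeviation to postdeviation -2.45 ± 1.12 (0.274). Neither passed, and DESeq2 called the second (adjusted p = 0.0361).

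MiR-23a, the a-cluster mate of miR-27a, was called in none of limma's 12 comparisons. Predeviation libraries held 634, 1302, 1347 and 1675 scaled reads, deviation libraries 907, 2812, 409.9 and 1209, and postdeviation libraries 1324, 666, 1120.0 and 1147. Deviation 2 and deviation 3 were the highest and the lowest of all 20 libraries. Preovulatory libraries held 858, 720.2, 876 and 978, and impending ovulation libraries 1089, 570.0, 1028 and 1296. The groups overlapped in all 10 pairs of stages, and stage means lay between 858 ± 106 (preovulatory) and 1334 ± 1039 (deviation). Against predeviation its log2 changes were -0.14 at deviation, -0.18 at postdeviation, -0.45 at preovulatory and -0.29 at impending ovulation (limma adjusted p 0.750 to 0.968). The 95% interval ran from -1.15 to 0.80 at postdeviation and from -1.27 to 0.68 at impending ovulation. With equal library totals the values at these 2 stages were 0.24 and 0.16, so no direction is given for miR-23a.

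MiR-24, which either cluster can supply, was the most abundant member. It held 15494, 15421, 18912 and 13801 scaled reads at predeviation, 26939, 24321, 14739.6 and 21709.7 at deviation and 18276, 23686.5, 21642 and 20698 at postdeviation. In both later groups 3 of 4 libraries lay above all of predeviation in scaled reads. As percent of library reads all 4 postdeviation libraries did (2.10 to 2.49%, against 0.776 to 1.66% at predeviation), while deviation 3 (1.26%) did not. Preovulatory libraries held 12026, 16755.5, 16098 and 13865, all below every postdeviation library, and impending ovulation libraries 19118, 20349, 15096 and 14273. The share of all 264 miRNAs that separate preovulatory from postdeviation was not counted. From high to low, the stage means ran deviation (21927 ± 5246), postdeviation (21076 ± 2245), impending ovulation (17209 ± 2977), predeviation (15907 ± 2150.3) and preovulatory (14686 ± 2162). No pair of stages passed for miR-24. The log2 change from predeviation to deviation was 0.44 ± 0.25 (limma adjusted p = 0.760), and from postdeviation to preovulatory -0.53 ± 0.25 (0.430). From predeviation to postdeviation it was 0.41 ± 0.25 (limma adjusted p = 0.391). That change was 0.83 with equal library totals (0.0853) and 0.12 with quantile normalization (0.856), so its size depended on the scaling.

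**Figure D2:**
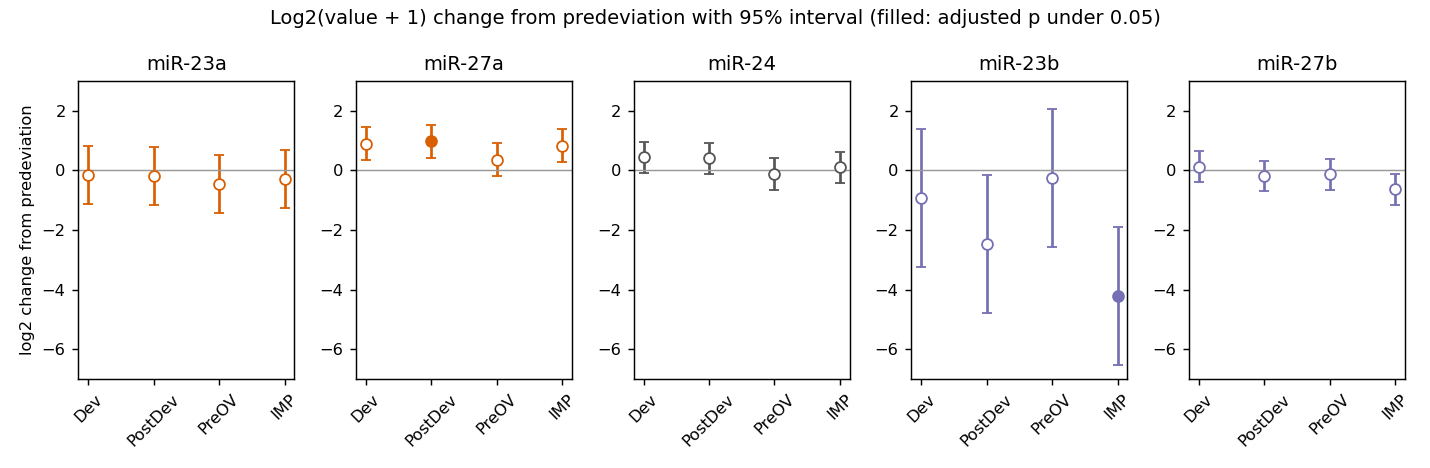
Change from predeviation on the log2(value + 1) scale (vertical axis) at each later stage, with its 95% interval from limma. Filled points, miR-27a at postdeviation (0.98) and miR-23b at impending ovulation (-4.21), had an adjusted p under 0.05.

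Over the whole course, the limma F test over the 5 stages called 4.92% of the 264 miRNAs and the trend over the stage order 5.68%, and 0 of the 5 members passed in either. In the F test, limma's adjusted p was 0.0726 for miR-23b and 0.0738 for miR-27a, and both had an unadjusted p under 0.05, as did 17.8% of all 264 miRNAs. In the trend, the log2 change per stage step was -0.78 ± 0.25 for miR-23b (limma adjusted p = 0.0654), -0.15 ± 0.06 for miR-27b (0.114) and 0.11 ± 0.06 for miR-27a (0.278). The unadjusted p of limma was 0.00496 for miR-23b and 0.0126 for miR-27b, and 20.8% of all 264 miRNAs had one under 0.05 in the trend. DESeq2 called miR-23b and miR-27b in the trend, where it called 17.4% of the 167 miRNAs with an adjusted p. Over the 5 stages it called miR-23b and miR-27a and 20.8% of 207 miRNAs. EdgeR called 0 members in either, with 6.06% of all 264 miRNAs called in the trend and 10.2% over the 5 stages.

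In the other 8 pairs of stages 0 of the 5 members passed limma's threshold, and few miRNAs did at all. The share called was 4.92% for preovulatory against predeviation, 0.379% for deviation against predeviation and 0.379% for impending ovulation against deviation. It was 0% for each of postdeviation and preovulatory against deviation, preovulatory and impending ovulation against postdeviation, and impending ovulation against preovulatory. The share of all 264 miRNAs with an unadjusted p under 0.05 is given beside the members that had one. Against predeviation, it was 13.6% for preovulatory, with 0 members, and 7.95% for deviation, with 1 member, miR-27a. Against deviation, it was 6.06% for postdeviation with 0 members, 11.4% for preovulatory with 1 member, miR-24, and 14.4% for impending ovulation with 2 members, miR-23b and miR-27b. Against postdeviation, it was 10.6% for preovulatory with 2 members, miR-24 and miR-27a, and 9.09% for impending ovulation with 0 members. Between impending ovulation and preovulatory it was 9.09%, with 1 member, miR-23b. EdgeR called 0 members in these 8 pairs, and DESeq2 called miR-27b for impending ovulation against deviation, where it called 3.03% of the 264 miRNAs.

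The contrast of the a and b clusters is clearest as a share of reads within a library, which does not depend on the scale of the library. MiR-27a made up 25.2%, 27.4%, 33.4% and 26.9% of the reads of miR-27a and miR-27b in predeviation libraries 1 to 4. The share was 43.1%, 37.6%, 33.4% and 46.8% at deviation and 41.9%, 46.1%, 54.7% and 44.2% at postdeviation. All 4 postdeviation libraries stood above all of predeviation. It was 30.2%, 39.2%, 34.1% and 38.2% at preovulatory and 51.6%, 58.7%, 49.1% and 47.7% at impending ovulation. Each library at impending ovulation stood above each library of predeviation, deviation and preovulatory. The count behind a library's share was at least 763 reads. Exact (Clopper-Pearson) 95% intervals were, for example, 23.1 to 27.4% in predeviation 1 and 55.2 to 62.2% in impending ovulation 2. Some libraries of different stages had intervals that overlapped. Deviation 4 (46.8%, 44.9 to 48.6%) and impending ovulation 4 (47.7%, 45.7 to 49.7%) were such a pair, so counting error alone could blur the separation of these 2 stages.

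MiR-27b was thus the more abundant form in all 4 predeviation libraries, and at impending ovulation each form led in 2 of the 4. Mean shares were 28.2% ± 3.59 at predeviation, 40.2% ± 5.89 at deviation, 46.7% ± 5.58 at postdeviation, 35.4% ± 4.10 at preovulatory and 51.8% ± 4.90 at impending ovulation (SD, n = 4). The share rose by 4.23 percentage points per stage step (two-sided permutation test with 100000 shuffles over the 20 libraries, p = 0.00252, adjusted over the shares of miR-27 and miR-23 p = 0.00504). The course was not steady, since all 4 preovulatory libraries lay below all of postdeviation and of impending ovulation. Between the ends of the order the difference was 23.55 percentage points (higher in 4 of 4; exact two-sided permutation test, p = 0.0286, the smallest that 70 arrangements can give, and 0.0286 adjusted over the 2 shares). Without any 1 of the libraries at impending ovulation the adjusted exact p was 0.0571. From predeviation to impending ovulation miR-27a had a ratio of means of 1.69 and miR-27b of 0.642, neither past limma's threshold (adjusted p = 0.0773 and 0.175). With equal library totals the log2 changes were 1.27 and -0.18, so how the shift divides between the forms depended on the scaling. In scaled reads the sum of the 2 forms had a log2 change of -0.05 from predeviation to impending ovulation and of 0.25 to postdeviation. The sum was not taken with equal library totals. As mean percent of library reads, miR-27a went from 0.596 at predeviation to 1.343 at impending ovulation, and miR-27b from 1.462 to 1.245.

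MiR-23 went the same way at its ends with far fewer reads. MiR-23a made up 76.8%, 56.8%, 83.1% and 92.6% of miR-23 reads at predeviation, 92.0%, 94.8%, 63.4% and 86.4% at deviation and 97.9%, 91.3%, 98.6% and 83.1% at postdeviation. It made up 67.7%, 83.1%, 80.0% and 79.0% at preovulatory and 98.6%, 20 of 20 reads, 96.4% and 93.1% at impending ovulation. Exact intervals are wide here, with a lower bound of 83.2% for the library with 20 reads, impending ovulation 2. Each library at impending ovulation stood above each library of predeviation and of preovulatory. The separation from predeviation was narrow. Impending ovulation 4 (93.1%, 95% interval 87.4 to 96.8%) lay just above predeviation 4 (92.6%, 85.4 to 97.0%), and these intervals overlap. The mean share was 77.3% ± 15.1 at predeviation and 97.05% ± 3.001 at impending ovulation, a difference of 19.73 percentage points (exact two-sided permutation test, p = 0.0286, adjusted 0.0286). It was 12.9 points without predeviation 2, and the adjusted exact p was 0.0571 without any 1 of the libraries at impending ovulation. The sum of the 2 forms of miR-23 had a log2 change of -0.64 between these stages in scaled reads, and was not taken with equal library totals. The slope of 3.27 percentage points per stage step did not pass (permutation test, p = 0.0940, adjusted 0.0940).

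**Figure D3:**
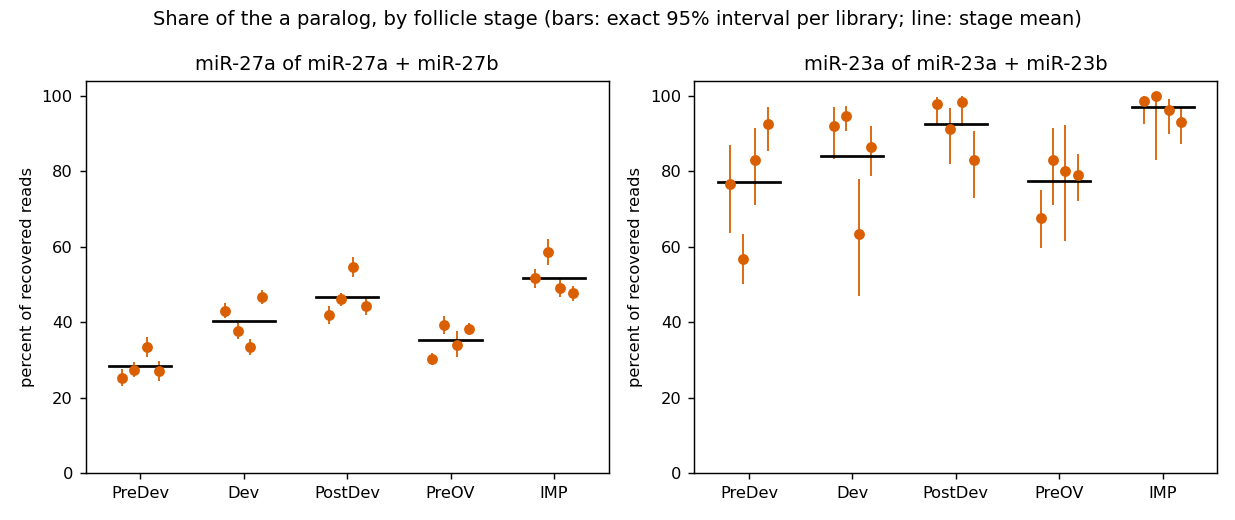
Percent of recovered reads that belong to the a form of miR-27 (left) and of miR-23 (right) in each library, by follicle stage. Bars are exact 95% intervals and lines are stage means. The miR-27a share lies between 25.2 and 33.4% before deviation and between 47.7 and 58.7% at impending ovulation, with a dip at preovulatory.

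Across the 20 libraries the members did not vary as a single unit. On the log2(value + 1) scale miR-24 went with miR-27a (Pearson r = 0.69, Spearman rho = 0.75) and not with miR-27b (r = 0.05, rho = 0.17). MiR-27b went with its cluster mate miR-23b (r = 0.73, rho = 0.61), whereas miR-23a and miR-27a, mates as well, had r = -0.04. Without the 2 libraries farthest from the median on the first measure, r was 0.67 for miR-24 with miR-27a and 0.52 for miR-23b with miR-27b. With stage means removed it was 0.56 and 0.55. These are descriptions over 20 libraries that share stages, depth and scaling, and the median over all pairs of the 264 miRNAs was r = 0.03.

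The miRNAs most like each member in course differed between the clusters. For miR-27b they were miR-23b, miR-340-5p (r = 0.72) and miR-99b (r = 0.70), and for miR-23b miR-99b (r = 0.84), miR-340-5p (r = 0.79) and miR-872 (r = 0.74). For miR-27a they were miR-22, miR-192 and miR-215 (each r = 0.76). For miR-24 they were miR-27a, miR-215 and miR-222 (each of the last pair r = 0.50), and for miR-23a miR-9156, miR-151-5p and miR-656 (r = 0.60, 0.60 and 0.55). Both other neighbours of miR-27b, miR-340-5p and miR-99b, were thus also among the 3 nearest of miR-23b. These r are the highest picked from all tested miRNAs, so the median over all pairs is no measure for them. MiR-9156 and miR-151-5p were scarce, with means of 36.8 and 21.8 scaled reads, where 1 read stood for 7.04 to 36.5.

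**Figure D4:**
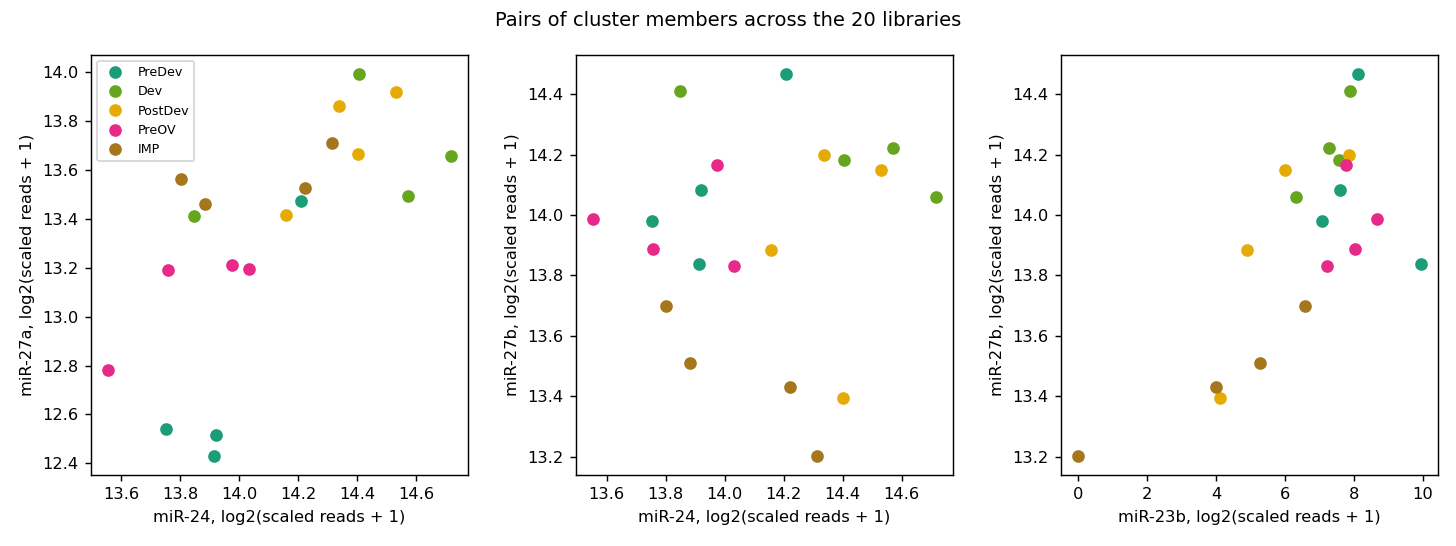
Each point is 1 of the 20 libraries, coloured by stage, with log2(scaled reads + 1) on both axes. MiR-24 and miR-27a go together (r = 0.69), miR-24 and miR-27b do not (r = 0.05), and miR-23b and miR-27b do (r = 0.73), with the libraries at impending ovulation at their low end.

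Markers of other cell types were read beside these results, from lists matched by name. The endothelial list (miR-126-3p, miR-126-5p, miR-221 and miR-222) had all 4 members tested. It summed to 5368.25 to 14060.3 scaled reads at predeviation, 2669 to 5319.65 at impending ovulation and 2087 to 5806 at postdeviation. The ranges of predeviation and impending ovulation missed each other narrowly. Library totals did not overlap between these stages either (1078319 or more at predeviation, 1015849 or less at impending ovulation). The sums were not brought to equal totals. The smooth muscle and theca pair miR-143 and miR-145 summed to a mean of 45388 at predeviation and 16718 at impending ovulation, with overlap. At these 2 stages the 6 leukocyte markers summed to 971 to 1655 and 1136 to 3162, and the 4 red cell markers to 12435 to 27037 and 14337 to 21050.1. Among the leukocyte markers miR-155 had a log2 change of 1.58 and the other 5 had changes between -1.81 and -0.20, with a median of -0.25 over the list. Of the granulosa and LH response list, 4 of 6 were tested, and it summed to 46905.5 to 321836 at predeviation and 39529 to 149931 at impending ovulation. MiR-144 of the red cell list was at 0 in 18 libraries, miR-212 in 17 and miR-383, both of the granulosa list, in 16. None of the 686 names was eca-miR-202, so it was not analysed. Limma called 0 of the tested markers of the 5 lists in any of the 12 comparisons. Examples at impending ovulation against predeviation were miR-126-3p with a log2 change of -1.10 (limma adjusted p = 0.202), miR-143 with -1.93 (0.0814) and miR-21, an LH-responsive miRNA, with -1.26 (0.367). Over all 264 miRNAs the median log2 change in this comparison was -0.39, and over the 5 members -0.29. From predeviation to postdeviation these medians were -0.31 and -0.18. The part of these cell types in the course of miR-23b, miR-27a and miR-27b was not tested.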

How the data were processed

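Small RNA of vesicles pelleted by ultracentrifugation from 2 ml of follicular fluid was sequenced from libraries of the TruSeq Small RNA kit, per the labels' protocols. The submitters' processing notes name, with no role, the tools bcl2fastq, DESeq2 and Bowtie2 2.2.2 and the build EquCab3.0. Aligner settings, miRNA annotation and counting are not given in the sources used here. What the authors deposited under the name CPM is a signal of scaled reads: the libraries sum to unequal totals, 774632 to 1778185. Dividing a column by its lowest value above 0 (7.04 to 36.5) gave whole numbers within 1e-06, taken as recovered reads (1457859 in total). With no molecular identifiers, intervals cover counting error only.

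The 264 miRNAs that held 10 or more scaled reads in 4 or more libraries entered 1 limma fit (3.58.1, in R 4.3.3) of log2(value + 1), with all 20 libraries, a mean per stage and limma's intensity trend. P-values are two-sided, and Benjamini-Hochberg adjustment was done per comparison (threshold 0.05). Fold changes are on that log scale, which depends on the pseudocount of 1 for scarce miRNAs. The script was tested on simulated data. EdgeR 4.0.16 (quasi-likelihood, TMM) and DESeq2 1.42.0 were run on recovered reads as alternatives. Shares of paralogs use recovered reads and permutation tests over libraries. Likeness is Pearson's r over the 20 libraries, with the 3 highest named per member. From marker lists, up to 3 abundant members were to be named, with any that passed. The members, lists and tests were chosen with earlier results of these data known. A planned search for other miRNAs with the same seed was not run, as it needs sequences. Same-numbered libraries of different stages did not vary together (median r = -0.04 over 40 pairs, 4 of them over 0.1), so replicate numbers were not taken to pair libraries.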

Additional observations from a re-analysis of the deposited data

Results flagged for a closer look

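Among 35 groups of 4 libraries (5 members and 2 paralog shares in 5 stages), 3 held a library whose gap to its nearest neighbour was over 0.829 of the range of the group, where chance gives about 1 in 20. MiR-23b stood at 989 scaled reads in predeviation 2, against 133 to 275 in the other predeviation libraries (gap 0.834 of the range). That library also held the highest ratio of miR-451 to miR-23a of its stage, 4.195. MiR-27a stood at 11380.3 in predeviation 3, against 5522 to 5958 in the others (gap 0.926), where miR-27b and miR-24 were also at their highest of the stage, 22651 and 18912. MiR-27a stood at 7034 in preovulatory 1, against 9339.6 to 9491 in the others (gap 0.938).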

How the results depend on the processing

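The rise of miR-27a at postdeviation kept its direction throughout, and its call in 9 of 13 settings and without 16 of the 20 libraries left out singly. The fall of miR-23b at impending ovulation kept its direction throughout, and its call in 11 of 13 settings and without 16 of 20 libraries. The number of members past the threshold moved for postdeviation against predeviation from 1 to 0 with quantile normalization, edgeR with TMM, no intensity trend or only the 2 stages in the fit, and to 2 with DESeq2. For impending ovulation against predeviation it moved from 1 to 2 with a mean of at least 100, the median of ratios or equal library totals, to 3 with DESeq2, and to 0 without libraries under 40000 reads or with only the 2 stages in the fit. For the F test it moved from 0 to 1 with a pseudocount of 10, the median of ratios or equal library totals, and to 2 with a mean of at least 100 or DESeq2. For the trend it moved from 0 to 2 with a mean of at least 100 or DESeq2, and to 1 with equal library totals. Deviation against predeviation moved from 0 to 1 with equal library totals, and impending ovulation against deviation with DESeq2. Leaving out 1 library gave 0 to 1 in these comparisons and in impending ovulation against preovulatory, except for deviation against predeviation, where it stayed at 0. The library that added a call for impending ovulation against deviation and against preovulatory was impending ovulation 4. The trends of miR-23a and miR-24, not called, turned to 0.026 and 0.082 per step with equal library totals.

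The slope of the miR-27a share stayed past the threshold in each setting that had a test, between 3.65 and 4.62 points without any 1 library. That of the miR-23a share was 1.96 to 4.06 points without any 1 library (adjusted permutation p 0.0377 to 0.281), and passed without predeviation 4 or preovulatory 1. It was 0.69 as a difference of log2(value + 1) and passed (adjusted permutation p = 0.0362). The differences between impending ovulation and predeviation were 12.9 to 24.8 points for miR-23a and 21.2 to 25.3 for miR-27a without any 1 library. Without libraries under 40000 reads they were 18.7 and 21.2 points (adjusted exact p = 0.0571 for both), where 35 arrangements are left; the same p held without any 1 library at impending ovulation. With the replicate block they were 19.73 and 23.55 points (exact p = 0.125, the smallest that 16 sign changes allow), and the replicate block changed no count of members. Equal library totals moved the median log2 change of all miRNAs at impending ovulation from -0.39 to -0.0029, so the direction of small changes such as that of miR-23a depends on the scale. The causes of these moves were not tested. Depth limits miR-23b most, with 317 reads in all.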

Other observations

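MiR-451 and miR-23a are often read as a ratio in blood plasma, where the red cell miRNA miR-451 rises with lysis and miR-23a serves as the reference. In these vesicles the ratio had a median of 0.802 and ran from 0.145 in deviation 2 to 6.61 in preovulatory 2. Stage medians lay between 0.652 (postdeviation) and 1.01 (deviation). The 2 highest libraries, preovulatory 2 and predeviation 2 at 4.195, came from different stages. The low end, deviation 2, was the library with the most miR-23a, 2812 scaled reads.

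The ratio of miR-24 to miR-27a had stage medians of 2.48 at predeviation, 1.72 at deviation, 1.60 at postdeviation, 1.70 at preovulatory and 1.43 at impending ovulation. That of miR-24 to miR-27b had 0.873, 1.22, 1.26, 0.896 and 1.51 over the same stages.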
